A study of Homo sapiens with 12 samples.

Results

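AP-1 is a dimeric transcription factor of the basic leucine zipper class. FOS-type proteins (FOS, FOSB, FOSL1, FOSL2) must pair with a JUN-type protein (JUN, JUNB, JUND) to bind DNA, while JUN-type proteins can also pair with themselves, and ATF3, a stress-induced relative, pairs with JUN-type proteins. Several of these genes are immediate early genes, whose short-lived mRNAs appear within minutes of a growth or stress signal, and AP-1 is a regulator of bone cell growth, with Fos a known driver of osteosarcoma in mice. The 8 genes described here (FOS, FOSB, FOSL1, FOSL2, JUN, JUNB, JUND and ATF3) were chosen by name and found by their Entrez number in the lists. All 8 had a peak in at least 1 of 6 lists, out of 10536 genes with a peak in any list. They held 61 of 81380 peaks.

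The peaks mark N6-methyladenosine (m6A), a methylated base of mRNA, mapped by pulling down fragmented RNA with an m6A antibody (MeRIP-seq). The cells were 143B, an established human osteosarcoma line. They were harvested 48 h after transfection with siRNAs against ALKBH5, an enzyme that removes m6A, or with scrambled siRNA, with 3 immunoprecipitates in each of the 2 groups, ALKBH5 knockdown and scrambled. The other 6 of the 12 samples were inputs and were not analysed here. Replicate numbers also marked the method in the protocol text. Replicates 1 and 3 used polyadenylated RNA with different antibodies, and replicate 2 used total RNA with a kit and a further antibody, although the antibody field names the antibody of replicate 1 throughout. Nothing in the labels says that the replicates were separate cultures, so any p-value measures only the spread between these libraries.

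The lists hold no read counts, so depth is unknown, and a missing peak does not show a missing mark. RNA level and methylation both bear on a call and cannot be told apart here. Knockdown lists held 17563, 5917 and 18360 peaks in replicates 1, 2 and 3, against 15139, 5677 and 18724 in scrambled lists. Covered exon length, the nucleotides (nt) under a library's peaks, was 1.57, 1.13 and 1.0 times as large over all peaks in the knockdown list of each pair. Values of the 8 genes are read against those ratios. ALKBH5 had 0 nt under peaks in every knockdown library, against 210, 0 and 150 nt in scrambled replicates 1, 2 and 3, but peaks are no RNA level. Of 8 osteosarcoma markers, 4 had a peak in some list, among them RUNX2, COL1A1 and SPP1. SP7, ALPL, COL1A2 and SPARC had none. Of 5 epithelial markers none had a peak, and of 5 blood markers CD14 alone had one.

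Same-strand peaks with exon blocks sharing 1 bp or more were joined into a site. The 8 genes carried 16 sites of the 21675 in all lists, numbered within a gene from its 5′ side, with coordinates on hg19. No site carried the number of another gene. All 61 peaks were single blocks, against 87.0% of peaks in all lists, and JUN, JUNB and JUND are known to be genes without introns. No hg19 annotation was used here, so the place of a site in coding or untranslated sequence is not given.

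Peak calls were most regular on FOSL2, JUNB and JUND. These 3 genes had a peak in all 6 libraries, as had 23.3% of genes, and each had its own site called in all 6, as had 12.7% of sites. JUN was called in 5 libraries, FOSB in 4, and FOS and ATF3 in 3. FOSL1 was called in a single library. Knockdown libraries called 7, 3 and 7 of the 8 genes in replicates 1, 2 and 3, and scrambled libraries called 5, 4 and 8, which sums to 17 calls in each condition. Of all genes, 78.5%, 32.0% and 86.6% were called in these knockdown libraries and 66.5%, 31.4% and 88.2% in the scrambled ones. Replicate 2 therefore had few AP-1 calls in both conditions, as it had few calls of any gene.

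**Figure D1:**
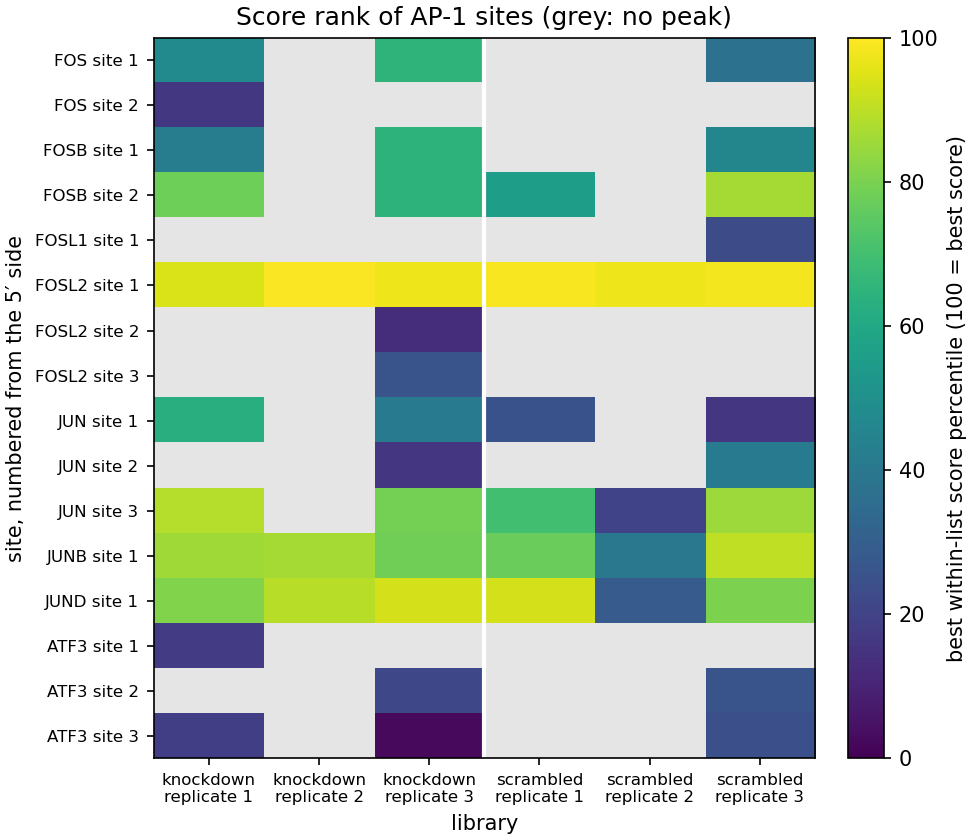
Each row is 1 of the 16 AP-1 sites and each column a library, knockdown left of scrambled. Colour gives the best within-list score percentile of the peaks there (100 is the best score) and grey marks no peak; FOSL2 site 1 ranked between 94.3 and 99.4 in every library, while the sites of ATF3 lay at 25.9 or below.

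Mean covered length over the 6 libraries was highest for FOSL2 at 1093 ± 541 nt (SD, n = 6). JUN followed with 844.8 ± 761 nt and JUNB with 840.2 ± 562 nt. Next came JUND with 525.2 ± 272 nt, FOSB with 350.2 ± 286 nt and FOS with 220.0 ± 258 nt (SD, n = 6 each). ATF3 averaged 145.7 ± 191 nt and FOSL1 59.67 ± 146 nt. Each gene differed from its neighbour in this order by less than the larger of their SDs. A longer transcript can hold more covered nucleotides, so the order is not one of methylation per base.

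FOSL2 encodes a FOS-type protein (Fra-2) that acts in bone and cartilage. Its site 1 lay on chromosome 2 from 28634960 to 28636455 on the plus strand and was among the best-scored calls of every list. Knockdown replicate 1 had 1 peak of 1287 nt there (28635139 to 28636425, rank 974 of 17563). Knockdown replicate 2 had peaks of 389 nt (28635319 to 28635707, rank 33 of 5917) and 120 nt (28635857 to 28635976, rank 3025). Knockdown replicate 3 had 1 peak of 1496 nt that spanned the whole site (rank 483 of 18360). The longer peak of knockdown replicate 2 at this site was also the better ranked.
Scrambled replicate 1 had peaks of 1138 nt (28635049 to 28636186, rank 117 of 15139) and 61 nt (28636305 to 28636365, rank 12415). Scrambled replicate 2 had 1 peak of 419 nt (28635319 to 28635737, rank 146 of 5677). Scrambled replicate 3 had 1 peak of 1287 nt (28635109 to 28636395, rank 318 of 18724). All 6 libraries shared 389 nt of site 1, from 28635319 to 28635707, which is the stronger peak of knockdown replicate 2.

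FOSL2 sites 2 and 3 were called in knockdown replicate 3 and in no other library. Site 2 covered 210 nt from 28637053 to 28637262 and ranked at percentile 12.9 of its list. Site 3 covered 150 nt from 28637651 to 28637800 and ranked at percentile 26.0. Both were in the weaker part of that list. In total, FOSL2 peaks covered 1287, 509 and 1856 nt in knockdown replicates 1, 2 and 3, against 1199, 419 and 1287 nt in scrambled ones. Knockdown was longer in all 3 pairs, by 88, 90 and 569 nt, and the groups overlapped. In replicate 1 the gain was below the median over all genes, 179.0 nt, and in replicate 3, 2.4% of genes had a larger difference. The replicate 3 difference includes sites 2 and 3, and site 1 differed by 209 nt. At site 1 the knockdown over scrambled ratios were 1.07, 1.21 and 1.16, against medians of 1.39, 1.03 and 1.0 over all sites called in both libraries of the pair. These ratios were exceeded at 75.0%, 39.7% and 29.0% of those sites.

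FOS, the prototype immediate early gene, was covered in replicates 1 and 3 only. Its site 1 lay on chromosome 14 from 75747592 to 75748100 on the plus strand. It held 449 nt in knockdown replicate 1 (75747622 to 75748070, rank 9157 of 17563) and 509 nt in knockdown replicate 3 (rank 6406 of 18360). In scrambled replicate 3 it held peaks of 91 nt (75747741 to 75747831, rank 17772 of 18724) and 180 nt (75747891 to 75748070, rank 11665), both inside the knockdown peak, and scrambled replicate 1 had none. Site 2, called in knockdown replicate 1 alone, covered 91 nt from 75748130 to 75748220 and began 29 nt after site 1. FOS thus had 540, 0 and 509 nt in knockdown replicates 1, 2 and 3, against 0, 0 and 271 nt in scrambled ones. Both called knockdown values exceeded every scrambled value, but knockdown replicate 2 at 0 made the groups overlap. In replicate 3 site 1 was 1.88 times as long in knockdown, and 6.06% of the 13413 sites called in both libraries had a larger ratio.

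FOSB encodes a FOS-type protein whose splice form ΔFosB accumulates in bone and brain. Its sites lay 4281 nt apart on chromosome 19, plus strand. Site 1 (45971552 to 45971851) covered 211 nt in knockdown replicate 1 and 300 nt in knockdown replicate 3, against 240 nt in scrambled replicate 3. Site 2 (45976133 to 45976552) covered 330 nt in both of these knockdown libraries, against 360 and 330 nt in scrambled replicates 1 and 3. The peaks of replicate 3 at site 2 had identical borders, 45976133 to 45976462, in knockdown and scrambled. In replicate 1 the 2 libraries shared all 330 nt of the knockdown peak (45976193 to 45976522). FOSB had 541, 0 and 630 nt in knockdown replicates 1, 2 and 3, against 360, 0 and 570 nt in scrambled ones. The called values ran from 360 to 630 nt and the groups overlapped. Knockdown was longer by 181 nt in replicate 1, where site 1 was called in knockdown alone, and 46.0% of genes had a larger difference. FOSL1, which encodes the FOS-type protein Fra-1, had a single peak, in scrambled replicate 3, of 358 nt on chromosome 11 from 65659871 to 65660228 on the minus strand (rank 14309 of 18724, percentile 23.4).

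**Figure D2:**
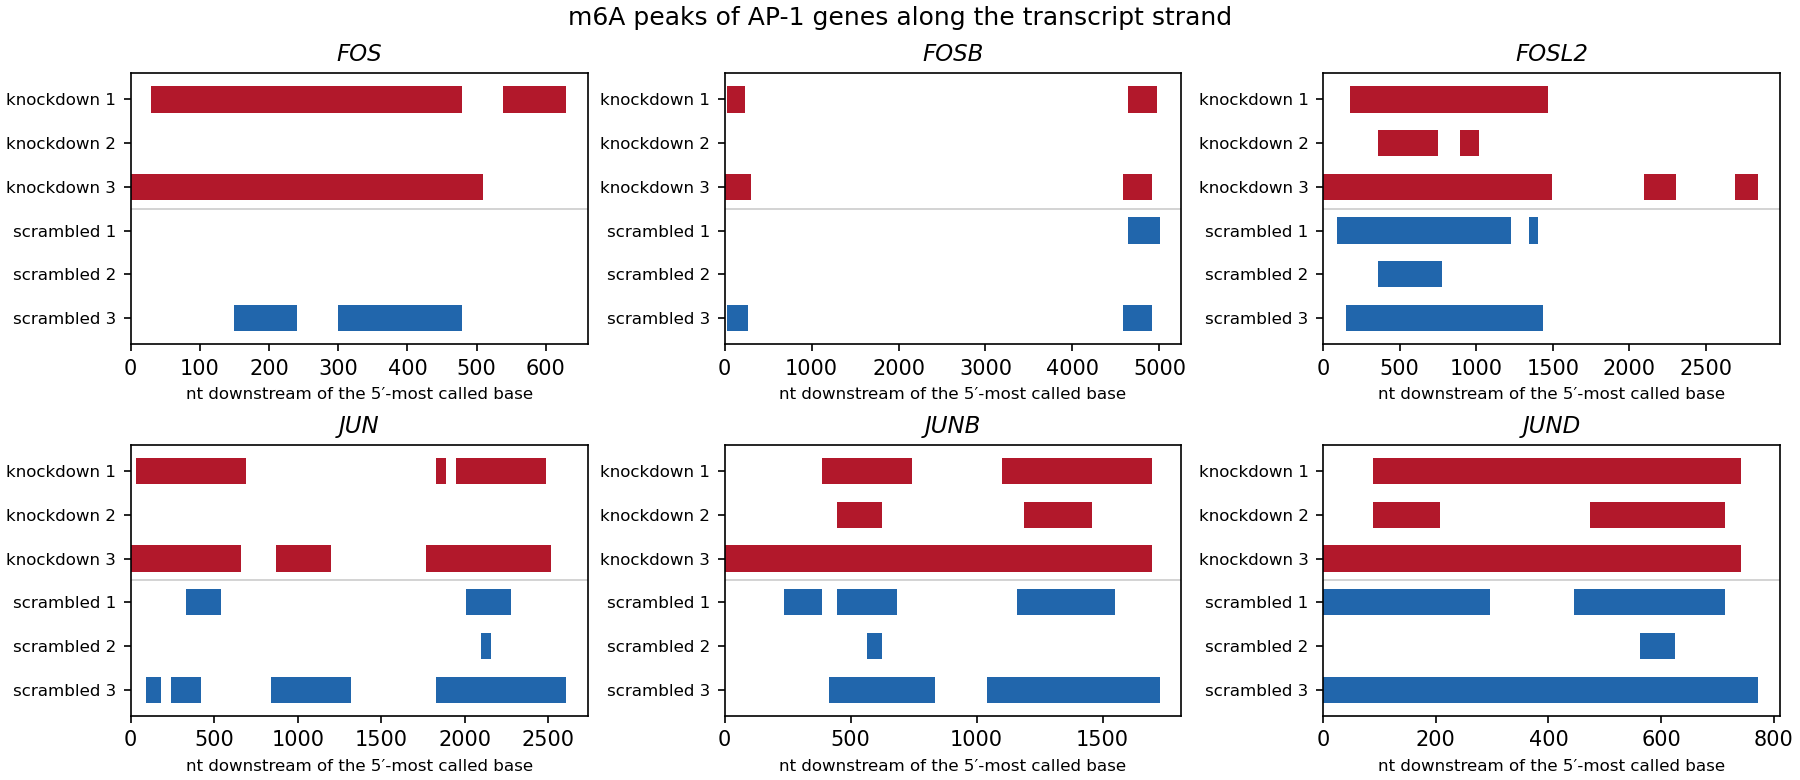
Each bar is 1 peak, drawn by its distance in nt from the 5′-most called base of the gene, with knockdown libraries (red) above scrambled libraries (blue). JUNB and JUND peaks fall on 2 stretches in several libraries, and the 5′ site of JUN is 659 nt long in knockdown replicates 1 and 3, against 211 nt in scrambled replicate 1 and 271 nt in scrambled replicate 3.

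JUN, the founding JUN-type gene, lies on the minus strand of chromosome 1 and had 3 sites, of which the 5′ one differed most between conditions. Site 1 (59249067 to 59249755) held 1 peak of 659 nt in knockdown replicate 1 (59249067 to 59249725, rank 6482 of 17563) and 1 of 659 nt in knockdown replicate 3 (59249097 to 59249755, rank 10809 of 18360). Scrambled replicate 1 held 211 nt there (59249216 to 59249426, rank 11328 of 15139). Scrambled replicate 3 held peaks of 181 nt (59249336 to 59249516, rank 15771 of 18724) and 90 nt (59249576 to 59249665, rank 17899). All the scrambled peaks lay inside the knockdown peak of the same replicate. Knockdown was 3.12 times as long in replicate 1 and 2.43 times in replicate 3, and 8.83% and 3.1% of the sites called in both libraries of those pairs had a larger ratio. Ratios of at least 2 in both pairs, a limit set after these values were seen, were found at 0.94% of the 8191 sites called in all 4 libraries, and at 1 of the 6 AP-1 sites among them. The reverse held at 0.366% of all such sites and 0 of the 6. Both knockdown values exceeded both scrambled values at JUN site 1 alone of the 6, and at 14.7% of all such sites (2.45% and 0 of the 6 the other way). Neither library of replicate 2 called the site. With all lists cut by score to the size of the shortest one, no peak of this site was left in any library.

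JUN site 2 (59248438 to 59248917) was called in replicate 3 only, with 330 nt in knockdown (rank 15412 of 18360) and 480 nt in scrambled (rank 11000 of 18724). JUN site 3 (59247151 to 59247989) held the best-scored JUN peaks. It covered 600, 0 and 749 nt in knockdown replicates 1, 2 and 3, against 270, 61 and 779 nt in scrambled ones. At site 3 knockdown was longer in replicate 1 and shorter in replicates 2 and 3. The called libraries shared 61 nt, from 59247600 to 59247660, which is the whole peak of scrambled replicate 2 (rank 4534 of 5677). Over its sites JUN had 1259, 0 and 1738 nt in knockdown replicates 1, 2 and 3, against 481, 61 and 1530 nt in scrambled ones. In replicate 1, 5.33% of genes had a larger difference than the 778 nt of JUN.

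JUNB, a JUN-type gene with weaker activating and often opposing effects to JUN, had 1 site on chromosome 19 from 12902340 to 12904065 on the plus strand. Knockdown replicate 1 had peaks of 358 nt (12902727 to 12903084, rank 5226 of 17563) and 596 nt (12903441 to 12904036, rank 2507). Knockdown replicate 2 had peaks of 180 nt (12902786 to 12902965, rank 2404 of 5917) and 269 nt (12903530 to 12903798, rank 793). Knockdown replicate 3 had 1 peak of 1697 nt (12902340 to 12904036, rank 3922 of 18360). That last peak bridged both stretches, and it joins them into 1 site.
Scrambled replicate 1 had peaks of 150, 239 and 388 nt (12902578 to 12902727, 12902786 to 12903024 and 12903500 to 12903887). Scrambled replicate 2 had 61 nt (12902905 to 12902965, rank 3355 of 5677). Scrambled replicate 3 had peaks of 418 nt (12902756 to 12903173, rank 1716 of 18724) and 685 nt (12903381 to 12904065, rank 4570). The 61 nt of scrambled replicate 2 were the part shared by all 6 libraries.

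JUNB peaks covered 954, 449 and 1697 nt in knockdown replicates 1, 2 and 3, against 777, 61 and 1103 nt in scrambled ones. Knockdown was longer in every pair, by 177, 388 and 594 nt, though the groups overlapped. The difference was close to the median of all genes in replicate 1 (51.4% of genes had a larger one). It was exceeded by 4.49% of genes in replicate 2 and by 2.3% in replicate 3. As ratios, 1.23 in replicate 1 lay below the median of all sites (1.39) and was exceeded at 62.2% of them, and 1.54 in replicate 3 was exceeded at 10.5%. In replicate 2 the ratio of 7.36 was exceeded at 0.136% of the 2946 sites called in both libraries, and there the scrambled peak was near the shortest of its list (59 nt).

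JUND is the JUN-type gene that is expressed steadily rather than as an early gene. Its site lay on chromosome 19 from 18390919 to 18391690 on the minus strand. Knockdown replicate 1 had 1 peak of 653 nt (18390949 to 18391601, rank 3295 of 17563). Knockdown replicate 2 had peaks of 239 nt (18390978 to 18391216, rank 631 of 5917) and 119 nt (18391483 to 18391601, rank 2901). Knockdown replicate 3 had 1 peak of 742 nt (18390949 to 18391690, rank 1158 of 18360). The stronger of the paired peaks in knockdown replicate 2 was the 3′ one.
Scrambled replicate 1 had peaks of 268 nt (18390978 to 18391245, rank 1212 of 15139) and 297 nt (18391394 to 18391690, rank 989). Scrambled replicate 2 had 61 nt (18391067 to 18391127, rank 4032 of 5677), and scrambled replicate 3 had 772 nt (rank 3664 of 18724). Knockdown and scrambled differed by 88, 297 and -30 nt in replicates 1, 2 and 3, so the sign was not the same in all pairs. In replicate 2, knockdown covered 5.87 times the scrambled length, a ratio exceeded at 0.747% of sites. In replicates 1 and 3 the ratios were 1.16 and 0.961, exceeded at 68.5% and 59.5% of sites.

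JUN, JUNB and JUND shared a feature in scrambled replicate 2. Each had 1 peak of 61 nt there, and 13.6% of the peaks of that list were of this length or shorter, against 12.4% in knockdown replicate 2. In knockdown replicate 2, JUN had no peak and no AP-1 peak was as short as that. The opposite outcomes of JUN (0 against 61 nt) and of JUNB and JUND (449 against 61 nt, and 358 against 61 nt) thus all start from calls at the short end of the scrambled list. The part of depth in this was not tested, as the lists hold no counts.

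ATF3 had the weakest calls among genes with more than 1 site. Site 1 on chromosome 1 (212782209 to 212782269, plus strand) covered 61 nt in knockdown replicate 1 alone. Site 2 (212792322 to 212792561), 10052 nt downstream, covered 150 nt in knockdown replicate 3, against 180 nt in scrambled replicate 3. Site 3 (212792741 to 212793041) covered 121 nt in knockdown replicate 1 and 61 nt in knockdown replicate 3, against 301 nt in scrambled replicate 3. At site 3 the replicate 3 ratio of 0.203 was among the lowest, with 99.4% of sites above it. There the knockdown peak ranked at percentile 2.37 and was near the shortest of its list (56 nt). ATF3 had 182, 0 and 211 nt in knockdown replicates 1, 2 and 3, against 0, 0 and 481 nt in scrambled ones, so replicates 1 and 3 went opposite ways.

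No AP-1 gene separated the conditions. The two-sided exact permutation test of covered length, run on all 10536 genes, gave p from 0.4 for FOS to 1 for FOSL1 and ATF3, and 0.5 for JUNB. The Benjamini-Hochberg adjusted p was 1 for all 8 genes. With 3 libraries against 3 this test cannot go below 0.1, and it called 0 of all genes (0.0%), also with 0 at an unadjusted p under 0.05. JUNB averaged 1033 ± 628 nt in knockdown and 647 ± 533 nt in scrambled (SD, n = 3 each). JUN averaged 999 ± 898 nt in knockdown and 690.7 ± 757 nt in scrambled, and FOS 349.7 ± 303 and 90.33 ± 156 nt (SD, n = 3 each). The difference was smaller than the larger SD of its groups for every gene. These SDs include the gap between replicate numbers, which differed in method and list size. Over all peaks, knockdown replicates 1, 2 and 3 covered 5746, 1084 and 7855 kb, and scrambled ones 3661, 961.2 and 7854 kb. Covered length was higher in every knockdown than in every scrambled library for 0 of the 8 genes and for 0.285% of all genes, and the reverse held for 0 of the 8 and 0.0285%. The groups overlapped for all 8. With lists so unequal within a group, this overlap says little about differences within pairs.

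**Figure D3:**
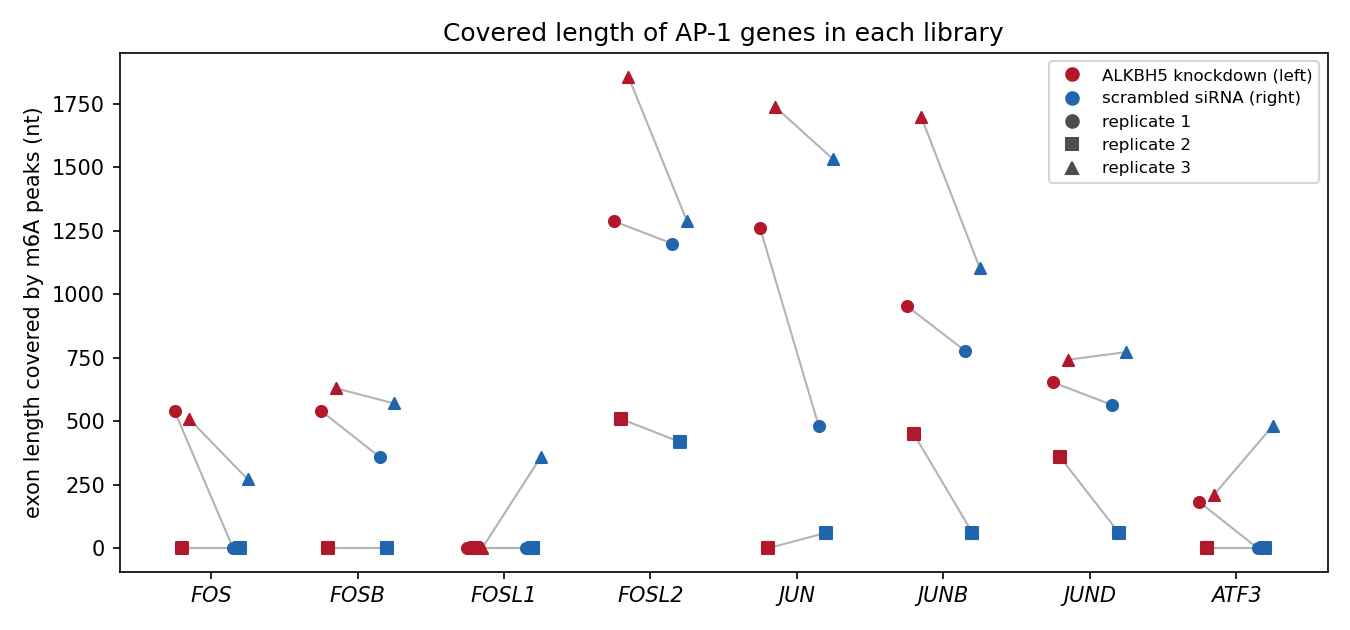
Points give the exon length under m6A peaks (nt) of each AP-1 gene in each library, knockdown (red) left of scrambled (blue), with lines joining libraries of the same replicate number. JUNB and FOSL2 are longer in knockdown in all 3 pairs, and the groups overlap for every gene.

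Within pairs, knockdown covered more AP-1 sequence more often than less. In replicate 1 all 7 called genes had more covered length in knockdown, as had 80.7% of all genes called in that pair. In replicate 2 it was 3 of 4 genes (52.4% of all) and in replicate 3 it was 5 of 8 (48.2% of all). Less covered length was found for 0 of 7, 1 of 4 and 3 of 8 AP-1 genes in replicates 1, 2 and 3, beside 17.6%, 43.0% and 46.7% of all genes. The replicate 1 share was close to its background, and the other shares rest on few genes. Summed over the 16 sites, peaks covered 5416, 1316 and 7383 nt in knockdown replicates 1, 2 and 3, against 3382, 602 and 6372 nt in scrambled ones. These sums have ratios of 1.6, 2.19 and 1.16, beside 1.57, 1.13 and 1.0 for all peaks. JUNB and FOSL2 were longer in knockdown in all 3 pairs, as were 13.0% of all genes, and no AP-1 gene was shorter in all 3, as were 1.42%. In replicate 1 the ratios of JUNB (1.23) and FOSL2 (1.07) lay below the 1.57 of all peaks.

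No AP-1 site was gained, or lost, in at least 2 pairs, but this was rare over all sites too. With 16 sites, a count of 0 does not set them apart from all sites. In replicate 1, 5 of the 11 AP-1 sites called in either library were gained (called in knockdown and not in scrambled) and 0 were lost, against 30.0% and 11.3% of all such sites. The gained sites were both FOS sites, FOSB site 1 and ATF3 sites 1 and 3. In replicate 2, 0 of 4 were gained and 1, JUN site 3, was lost (24.0% and 21.7% of all). In replicate 3, 2 of 14 were gained, FOSL2 sites 2 and 3, and 1, the FOSL1 site, was lost (13.1% and 15.3% of all). Sites gained in at least 2 pairs numbered 0 of 16, against 3.44% of all sites, and sites lost in at least 2 pairs 0 of 16, against 1.15%. Of the 16 sites, 5 were called in 1 library only, and over all sites 28.9% were. Without replicate 2, 6 of the 16 sites were called in all 4 libraries left, against 37.8% of all sites: FOSB site 2, FOSL2 site 1, JUN sites 1 and 3, JUNB and JUND.

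Other genes of the AP-1 network were compared by the number of libraries that called them. The share of all annotated genes with a peak was not determined, so the numbers with a peak have no background. Of 37 other leucine zipper genes, 30 had a peak, with 4 called in more and 5 in fewer knockdown than scrambled libraries. BACH2, a repressor that pairs with small MAF proteins, had 1860, 180 and 3354 nt in knockdown replicates 1, 2 and 3, against 241, 0 and 1832 nt in scrambled ones. CEBPA, a factor of fat and myeloid cell differentiation, had 508, 120 and 656 nt in knockdown replicates 1, 2 and 3, against 301, 0 and 566 nt in scrambled ones, and MAFG had 210 nt in knockdown replicate 3 alone. BACH2 and CEBPA were each called in 1 more knockdown library through replicate 2. The naming rule took none of the 5 called in fewer, whose mean differences in covered length were no larger than that of MAFG.
Of 36 genes listed as kinases and factors upstream of AP-1, 27 had a peak, with 9 in more and 5 in fewer knockdown libraries. ELK4, a partner of SRF at the FOS promoter, had 1500, 180 and 1889 nt in knockdown replicates 1, 2 and 3, against 812, 0 and 1859 nt in scrambled ones. TCF3, a helix-loop-helix factor, was called in 3 knockdown and 1 scrambled library, and MAP3K2 in 2 and 1. TCF3 is counted among the 9, although nothing here places it upstream of AP-1. MAP3K5 (ASK1), a stress kinase, was called in scrambled replicate 1 alone, with 330 nt.
Of 22 genes for AP-1 turnover and partner proteins, 17 had a peak, with 2 in more knockdown libraries, RUNX2 among them, and 0 in fewer. Of 27 AP-1 target genes, 12 had a peak, with 3 in more and 2 in fewer. Those named by the rule were COL1A1 and CD44 (2 knockdown and 1 scrambled library each), SPP1 (2 and 3) and HMOX1 (0 and 1). Over all genes 26.1% were called in more and 17.1% in fewer knockdown libraries, and of the 8 AP-1 genes 2 were in more (FOS and ATF3) and 2 in fewer (FOSL1 and JUN). The median difference in covered length was 183.7 nt for the 8 AP-1 genes. It was 35 nt for the other zipper genes, 29.67 nt for the upstream and for the turnover lists, 124.3 nt for the targets and 40 nt for all genes. The median turned negative without knockdown replicate 3 (-50.33 nt, and -49.33 nt for all genes) or without scrambled replicate 2 (-50.17 nt, and -50 nt for all genes). Scaled per Mb covered by each list, a unit not comparable with these, the median was 9.023 nt per Mb for the 8 genes and -0.005325 nt per Mb for all genes. No gene of these lists was higher or lower in every knockdown than in every scrambled library.

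For the 5 members called in at least 4 libraries, the gene with the smallest mean absolute difference in covered length over the 6 libraries was found. STON2 was nearest to JUN, 20.2 nt away on average, and ZNF256 was nearest to FOSB at 11 nt. BCAN was nearest to JUND (34.7 nt), PODXL to JUNB (83.3 nt) and TRIM41 to FOSL2 (84.7 nt). PODXL had 1081, 360 and 1709 nt in knockdown replicates 1, 2 and 3, against 631, 120 and 1170 nt in scrambled ones.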

How the data were processed

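Each of 6 m6A immunoprecipitates had 1 deposited list of 12 columns, so peaks were called per library. Per the submitters' processing notes, CASAVA 1.8.2, TopHat2 and SAMtools were used with hg19, while for the peak caller, its threshold and its use of inputs the sources used here give nothing. The score the authors deposited per peak has no stated meaning beyond its header, and, reaching 0.011 at most, it was read as a p-value and served only to rank peaks within a list (rank 1 and percentile 100 are best). List length limits what a rank means, so ranks are not compared between lists. Depth is unknown, and no interval could be given.

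Covered length is the merged block length of a gene's peaks in a library. Gene numbers were matched to symbols through a RefSeq table (GRCh38.p14, names only): 10500 matched and 36 did not. Work was done in Python 3.11.15 with numpy 2.4.6 and pandas 2.3.3. Site joining was tested on made-up peaks, and the permutation test on simulated lengths without the differences in list size between libraries. The sign-flip test was not tested in this way. The members and gene lists were chosen with earlier results of these data known. Named genes were all 8 members, up to 4 genes per further list whose number of libraries called differed most between conditions (ties by covered length), and the nearest gene of each member called in at least 4 libraries. Some genes that this rule names are not reported here. The replicate numbers pair the libraries, since the protocol ties each to an RNA type and antibody, and same-numbered libraries deviated together from the means of their groups over sites (correlations of 0.24, 0.31 and 0.29).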

Additional observations from a re-analysis of the deposited data

How the results depend on the processing

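No result passed a threshold under any setting, since the exact permutation test of 3 libraries against 3 cannot go below p = 0.1. In the paired analysis (replicate block, exact sign-flip test, smallest p 0.25) p was 0.25 for JUNB (386.3 nt) and FOSL2 (249 nt), 0.5 for FOS (259.3 nt), FOSB (80.33 nt), JUN (308.3 nt) and JUND (118.3 nt), and 1 for FOSL1 (-119.3 nt) and ATF3 (-29.33 nt), and it changed no call. With single libraries or replicate numbers left out, the difference in covered length ran from 54.5 to 678.5 nt for JUNB, 119 to 434.2 nt for FOS and -179 to 0 nt for FOSL1, whose 1 peak lies in scrambled replicate 3, so that the difference is 0 without that library. It changed sign for FOSB (-74.67 to 275.5 nt), FOSL2 (-70.33 to 603.2 nt) and JUN (-61.17 to 807.8 nt), each without knockdown replicate 3 or scrambled replicate 2. It also changed sign for JUND (-84.17 to 271.3 nt) without scrambled replicate 2, and for ATF3 (-135 to 131 nt) without knockdown replicate 2, scrambled replicate 3 or both libraries of replicate 3. With all lists at equal size by score the FOSB difference was 0 nt, and no FOS, FOSL1 or ATF3 peak was left. JUN site 1 had no peak left in that setting either, and the JUN difference was 59.67 nt. The best-scored 50% of each list left no FOSL1 or ATF3 peak, and at JUN site 1 only the peak of knockdown replicate 1. It left 8 AP-1 sites, of which 1 was called in all 6 libraries, close to the 11.7% over all sites. With a replicate number left out, a site had to be called only in the 4 libraries left. This held for 3 of the 16 AP-1 sites without replicate 1 or 3, and for 6 without replicate 2. Over all sites the shares were 13.4%, 37.8% and 12.8% without replicates 1, 2 and 3, against 12.7% in all 6 libraries. Scaled to the covered length of each list, an alternative added after seeing the data, the differences kept their sign, but some nearly vanished. Per Mb covered, knockdown and scrambled means were 309.9 and 309.1 nt for FOSL2, 58.12 and 56.97 nt for FOSB, and 19.51 and 20.41 nt for ATF3. The difference per Mb was 126.7 nt for JUNB, 74.07 nt for JUND and 41.42 nt for FOS. It was 16.9 nt for JUN and -15.19 nt for FOSL1. AP-1 sites gained or lost in at least 2 pairs stayed at 0 in every setting. The settings left 5 to 16 AP-1 sites, and over all sites the shares were at most 7.37% gained and 5.31% lost. The counts of 0 therefore do not set the AP-1 sites apart. The gap between the mean numbers of members called stayed within -0.833 and 1.33.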
